A study of Mus musculus with 16 samples.

Results

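The genes described here were 10 core autophagy genes of mouse liver, Sqstm1, Map1lc3a, Map1lc3b, Gabarap, Gabarapl1, Becn1, Ulk1, Atg5, Atg7 and Tfeb. They were chosen by name, with earlier results of these data known. Each name matched 1 of the 57010 genes in the deposited table, and all 10 were among the 11766 genes that entered the tests because they averaged 1 TPM or more, TPM being a transcript level scaled for transcript length and library total. Poly(A) RNA was sequenced from the livers of 16 male wild-type C57BL/6J mice, 4 in each of 4 groups. The SeMet diet began at 8 weeks of age, and livers were taken at the end of treatment. Control mice received neither agent. Cd mice received CdCl2 at 1.25 mg/kg by daily intraperitoneal injection for 7 days, Se mice ate a diet with 2 ppm selenomethionine (SeMet) for 3 months, and Cd+Se mice received both. What the control mice were injected with is not given in the sources used here. Each title lists a pair of replicate names for its mouse but the table holds 1 column per mouse, so n is the number of mice.

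Autophagy is the pathway by which a cell encloses part of its own contents in a double membrane, the autophagosome, and delivers it to the lysosome for breakdown. The Ulk1 kinase starts the process, the Becn1 complex makes a lipid that marks the growing membrane, and Atg7 and Atg5 belong to the enzyme systems that attach the Atg8 proteins (the LC3 and GABARAP families) to that membrane. Sqstm1, also called p62, binds ubiquitin-tagged cargo and Atg8 proteins together, and is itself degraded with the cargo. Its gene is a known target of the stress factor Nrf2. In liver the pathway is known for supplying amino acids and lipids during fasting and for removing damaged mitochondria. Transcript levels give the supply of mRNA for these proteins and do not measure the flow of material through the pathway.

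Sqstm1 was the only 1 of the 10 genes whose 4 Cd values all lay above the 4 control values, which was so for 6.44% of all tested genes (34.2% were clear of the controls in either direction), and its mean in Cd+Se mice was close to that in Cd mice. None of the 10 genes passed an adjusted p of 0.05 in any of the 6 comparisons tested with limma. In Cd against control 4 of 10 passed an unadjusted p of 0.05, Sqstm1 with a positive fold change and Becn1, Atg5 and Tfeb with negative ones, where the background share of all tested genes was 42.5%. By adjusted p the background in that comparison was 30.8% of tested genes, made up of 5.82% of tested genes with higher and 24.9% with lower levels in Cd livers. The adjusted p was computed over all 11766 genes.

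The libraries themselves differed in ways that touch these values. The median log2 level over the tested genes lay between 3.11 and 3.20 in the control livers, but was 2.68 in Cd mouse 5 and 2.90 in Cd mouse 6, and reached 3.36 in Se mouse 40. Over all genes tested, the median log2 change was -0.17 from control to Cd and 0.17 from Cd to Cd+Se. The metallothionein genes Mt1 and Mt2, which Cd is known to induce, summed to 77.3 to 371 TPM in control and 83.9 to 667 TPM in Se livers, and to 6260.3 to 9392 TPM in Cd and 6685 to 11942 TPM in Cd+Se livers, so every library matched its label on Cd. The 7 hepatocyte markers were abundant in every liver, with sums of 37897 to 65236 TPM in Cd, 57755 to 79661 TPM in control and 48180 to 69731 TPM in Cd+Se mice, and 2 were lower in Cd than in control by adjusted p with limma. The sum of 8 Kupffer cell and macrophage markers was 43.2 to 63.6 TPM in Cd against 116 to 141 TPM in control and 48.5 to 78.0 TPM in Cd+Se livers, and 7 of the 8 were lower in Cd than in control by adjusted p with limma. The sum of 6 neutrophil markers was 32.6 to 41.4 TPM in Cd, 6.63 to 16.7 TPM in control and 46.1 to 76.8 TPM in Cd+Se livers, and 3 of the 4 tested were higher in Cd than in control. The sum of 5 monocyte markers was 51.2 to 74.4 TPM in Cd, 53.8 to 70.4 TPM in control and 83.2 to 158 TPM in Cd+Se livers, and 2 of the 4 tested were higher in Cd. The neutrophil and monocyte sums of the Cd+Se livers thus lay wholly above those of the Cd livers. Marker by marker, 0 of 4 tested neutrophil and 1 of 4 tested monocyte genes passed as higher there by limma adjusted p. Also higher there were 2 of 7 hepatocyte, 2 of 8 Kupffer cell and macrophage and 1 of 6 endothelial markers, beside 13.6% of all tested genes. From control to Cd, 24.9% of all tested genes passed as lower and 5.82% as higher. Se livers had hepatocyte, Kupffer cell and macrophage, neutrophil and monocyte sums of 57474 to 111920, 65.2 to 155, 5.89 to 9.78 and 44.2 to 64.95 TPM. Endothelial markers summed to 35.4 to 53.6 TPM in Cd, 57.2 to 68.5 TPM in control and 40.5 to 77.6 TPM in Cd+Se livers, with 3 of 6 lower in Cd. Stellate cell markers summed to 77.2 to 125, 90.2 to 134 and 64.6 to 175 TPM in the same order, with 1 of 4 tested higher and 1 lower in Cd. Cholangiocyte markers summed to 29.02 to 51.6, 30.7 to 49.4 and 23.6 to 53.6 TPM, and T, B and NK cell markers to no more than 6.67 TPM in any of these livers. No listed marker was at 0 in all 16 libraries, and the part of these cell types in the results below was not tested. In bulk tissue, fewer cells of a type and less RNA per cell cannot be told apart.

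Averaged over the 16 livers, Gabarapl1 was the most abundant of the 10 transcripts at 190.0 TPM, followed by Gabarap at 163 TPM and Sqstm1 at 156 TPM. Map1lc3b averaged 50.3 TPM, and Becn1, Ulk1, Map1lc3a and Atg5 lay between 20.2 and 32.4 TPM. Atg7 at 8.51 TPM and Tfeb at 3.86 TPM were the least abundant. The spread between mice of a group was smallest in the controls, where the coefficient of variation over the 10 genes had a median of 9.98%, and larger in Cd (19.2%), Se (19.6%) and Cd+Se livers (14.5%).

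**Figure D1:**
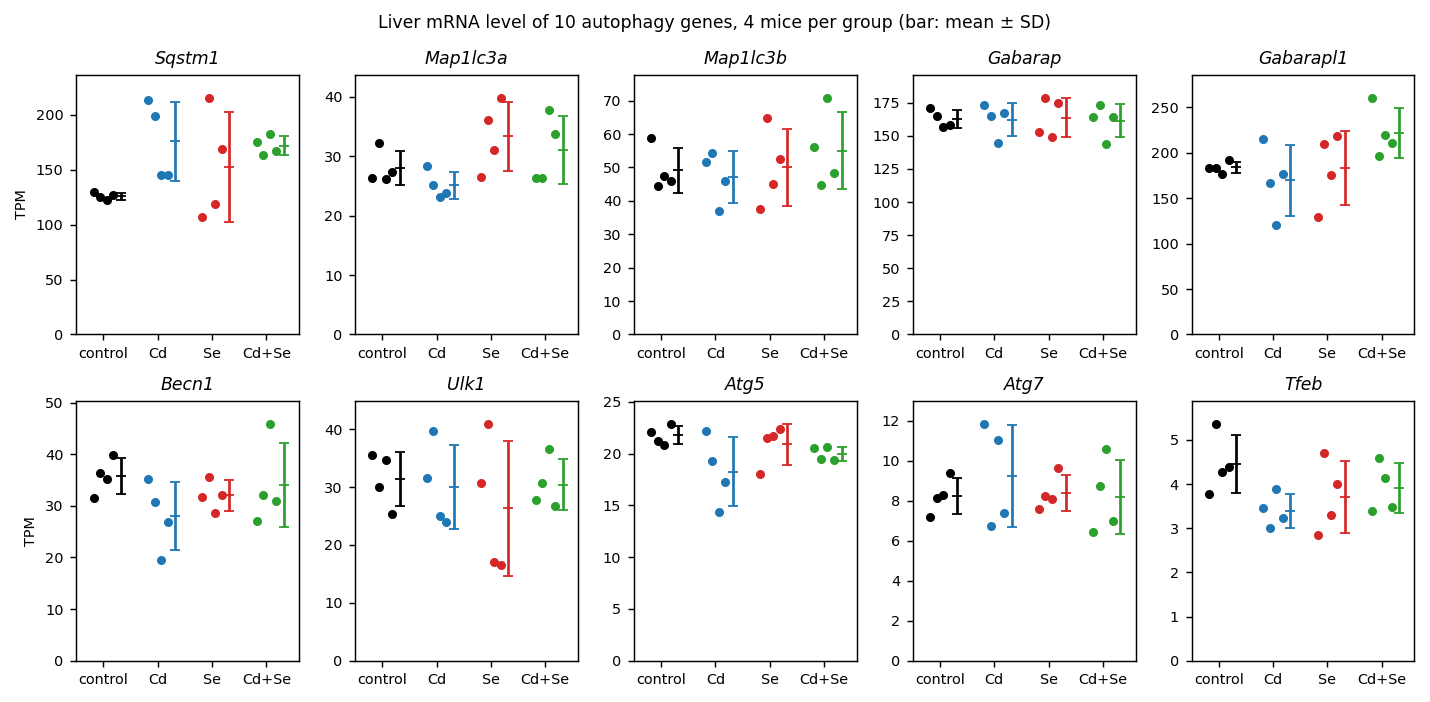
Level in TPM (y axis, starting at 0 in each panel) of the 10 autophagy genes in each liver, by group on the x axis. Points are single mice (4 per group) and the bar beside them is the mean ± SD. The 4 control values of Sqstm1 lie between 122 and 129 TPM and the 4 Cd values between 145 and 213 TPM, while the groups overlap for the other 9 genes in that comparison.

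Sqstm1 (ENSMUSG00000015837), the cargo receptor, was held within a narrow range in the control livers, at 129, 125, 122 and 127 TPM. The Cd livers were at 213, 199, 145 and 145 TPM, in mice 1, 2, 5 and 6. Every Cd liver was thus above every control liver, and within the Cd group mice 1 and 2 stood well above mice 5 and 6. The Cd+Se livers were at 175, 163, 182 and 167 TPM, again all above the controls, and lay between the lower and the upper Cd pair. The Se livers spread from 107 to 215 TPM (107, 215, 119 and 169 TPM) and overlapped every other group. By mean the order was Cd (176 ± 35.8 TPM, SD, n = 4), Cd+Se (172 ± 8.51 TPM), Se (152 ± 49.8 TPM) and control (126 ± 3.05 TPM).

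From control to Cd the fold change of Sqstm1 was 1.37 (95% interval 1.05 to 1.80), a log2 change of 0.46 ± 0.18 (SE) with a limma p of 0.0248 and an adjusted p of 0.0706. Fold changes and log2 changes throughout are on the scale of log2(TPM + 1). Relative to the median change of all genes the log2 change was 0.63. From Cd to Cd+Se the log2 change was -0.011 (95% interval -0.40 to 0.38, limma adjusted p 0.976), so the neighbours Cd and Cd+Se in the order of levels did not differ beyond their spread. Cd+Se against control gave 0.44 (0.05 to 0.83) with a limma adjusted p of 0.383, and Cd+Se against Se gave 0.23 (-0.16 to 0.62) with a limma adjusted p of 0.736. Se against control gave 0.22 (-0.17 to 0.61), and the interaction, the amount by which the Cd effect differed with Se in the diet, was -0.23 (-0.78 to 0.32) with a limma adjusted p of 0.638. The comparisons with Cd and with control livers reuse the same 4 mice each and are not independent of one another.

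How the Cd change of Sqstm1 stood against the threshold depended on the scaling and on which libraries entered the fit. Its log2 change was positive in all 24 other settings, from 0.36 to 0.68, and its limma adjusted p lay between 0.00131 and 0.177. It passed 0.05 in 5 of the 24, which were quantile normalization (0.50, adjusted p 0.00929), centring each library on its median (0.68, adjusted p 0.00131), a fit on the 8 Cd and control livers alone (0.46, adjusted p 0.0354), and the fits without Se mouse 39 (adjusted p 0.0475) or Se mouse 40 (adjusted p 0.0289). Leaving out Cd mouse 1 gave the smallest change, 0.36. The 2 Se mice are not part of the contrast and enter only through the shared estimate of the spread.

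**Figure D2:**
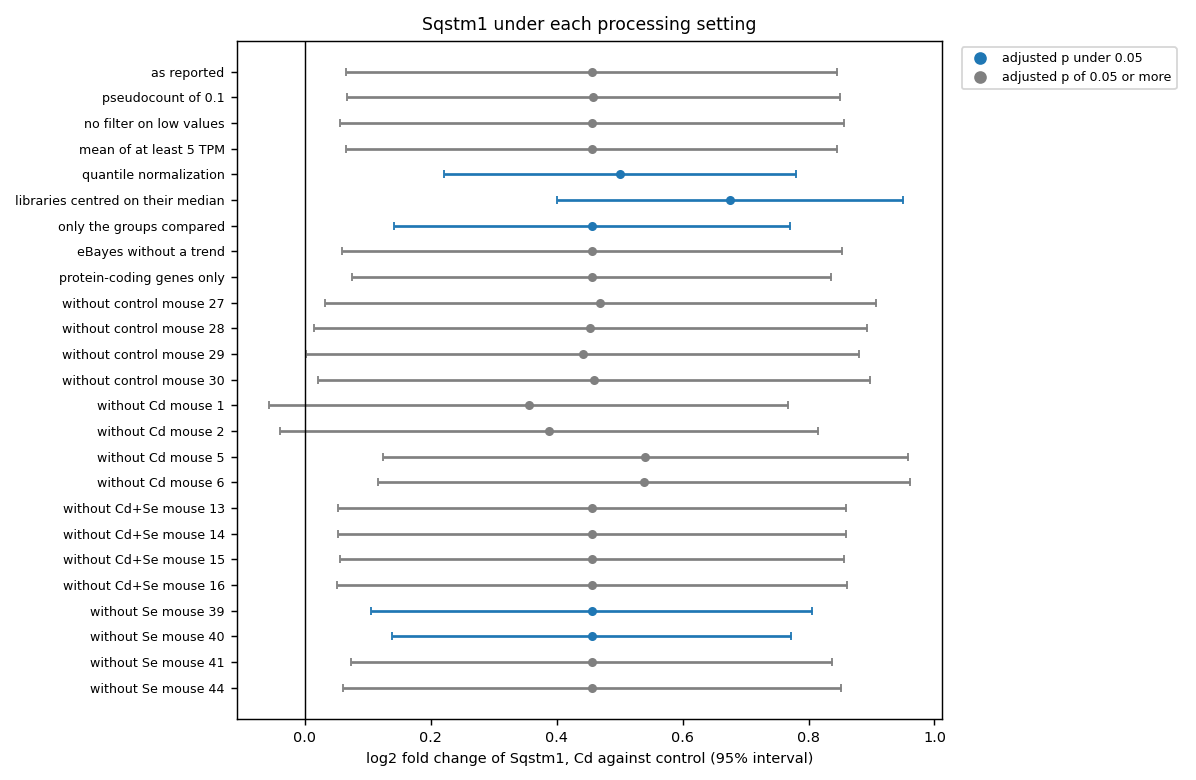
Log2 fold change of Sqstm1 in Cd against control livers (x axis, with 95% interval) under the reported fit and 24 other settings (y axis). Blue marks the 5 settings with an adjusted p under 0.05. All points lie right of 0, and the intervals reach below 0 without Cd mouse 1 and without Cd mouse 2.

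A ratio within 1 library does not depend on how that library was scaled, so Sqstm1 was also set against Gabarap, the member with the steadiest group means. This ratio was chosen after the values were seen and is a description. It was between 0.756 and 0.801 in the control livers. In the Cd livers it was 1.23, 1.21, 1.003 and 0.871, and in the Cd+Se livers 1.07, 0.942, 1.27 and 1.015. No liver of either Cd-treated group fell within the control range. The Se livers were at 0.696, 1.21, 0.796 and 0.969, on both sides of it.

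**Figure D3:**
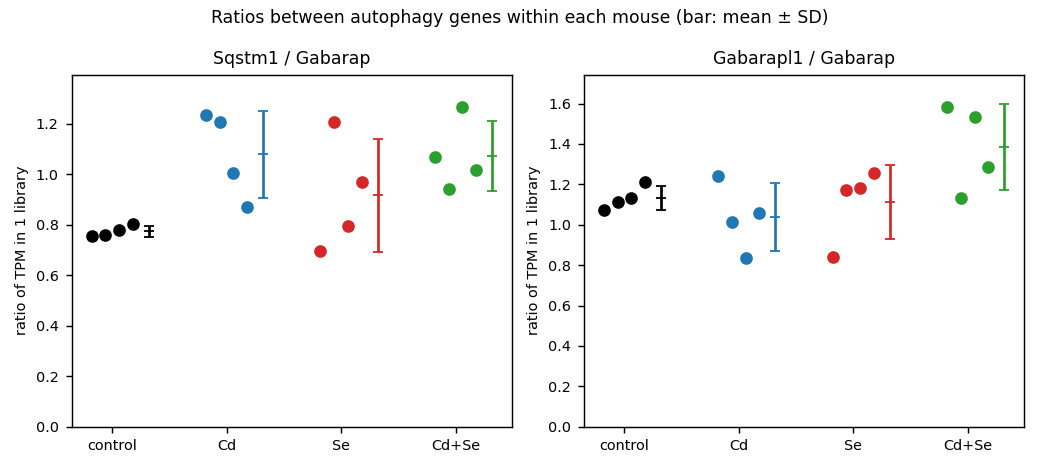
Ratio of TPM within each library (y axis, from 0) of Sqstm1 to Gabarap on the left and of Gabarapl1 to Gabarap on the right, by group. Points are single mice and the bar is the mean ± SD of 4. On the left all Cd and Cd+Se points lie above the control range of 0.756 to 0.801. On the right 3 of the 4 Cd+Se points lie above the highest control, 1.21, as do Cd mouse 1 at 1.24 and Se mouse 44 at 1.25.

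The Atg8 genes encode the small proteins that are joined to the autophagosome membrane. Gabarap (ENSMUSG00000018567) had nearly the same mean in every group, 163 ± 6.70 TPM in control, 162 ± 12.5 in Cd, 164 ± 14.9 in Se and 161 ± 12.5 in Cd+Se livers. Its Cd change was -0.0059 on the log2 scale (-0.21 to 0.20, limma adjusted p 0.970), but 0.022 after quantile normalization and 0.21 (limma adjusted p 0.0323) after centring. Gabarap passed in Cd only with centring among the settings run, and not with quantile normalization.

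Gabarapl1 (ENSMUSG00000030161), a relative of Gabarap, was at 184, 183, 177 and 192 TPM in the control livers. The Cd livers were at 215, 167, 120.2 and 177 TPM, on both sides of the controls. The Cd+Se livers were at 260.1, 196, 220.1 and 211 TPM, all above the controls, although the lowest of them lay below Cd mouse 1. Se livers were at 129, 209, 176 and 219 TPM. The order of the means was Cd+Se (222 ± 27.4 TPM), control (184 ± 5.92), Se (183 ± 40.6) and Cd (170.0 ± 38.9). The last 3 overlapped, and the Cd+Se values also overlapped those of Se and of Cd livers.

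From Cd to Cd+Se the log2 change of Gabarapl1 was 0.41 ± 0.17 (SE, 95% interval 0.04 to 0.78), with a limma p of 0.0331 and an adjusted p of 0.118. It was the only 1 of the 10 genes with an unadjusted p under 0.05 in that comparison, where 33.1% of tested genes had one and 15.9% passed by adjusted p. With 1 mouse left out at a time the change ran from 0.25 (without Cd mouse 5) to 0.53 (without Cd mouse 1), with limma adjusted p values from 0.0488 to 0.343, while quantile normalization gave 0.36 and centring gave 0.21. From control to Cd the log2 change was -0.14 (-0.51 to 0.23), and 0.076 after centring. As a share of the summed TPM of 5 Atg8 transcripts (Gabarapl2 included), Gabarapl1 made up 38.4 ± 1.40% in control, 36.8 ± 3.30% in Cd, 37.6 ± 3.20% in Se and 42.1 ± 3.04% in Cd+Se livers. The Gabarap share was 30.8 ± 3.61% in Cd+Se livers (26.9 to 35.4%) against 34.0 ± 0.896% in control (32.7 to 34.8%), so the ranges overlapped. The 5 shares are parts of 1 whole, so a higher share of 1 transcript lowers the others. In TPM the Gabarap mean was nearly the same in these groups. The lowest Cd+Se share of Gabarapl1, 40.04%, was above the highest control share, 39.65%. It was below those of Cd mouse 1 at 40.6% and Se mouse 44 at 40.32%. The ratio of Gabarapl1 to Gabarap was 1.58, 1.13, 1.53 and 1.28 in Cd+Se livers against 1.07 to 1.21 in control, and 1.24, 1.012, 0.833 and 1.06 in Cd livers. In Se livers it was 0.842, 1.17, 1.18 and 1.25, the last (mouse 44) above the highest control and above Cd+Se mouse 14.

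The LC3 genes Map1lc3a (ENSMUSG00000027602) and Map1lc3b (ENSMUSG00000031812), whose products are the usual markers of autophagosomes, overlapped between all groups. Map1lc3a ranged from 26.2 to 32.3 TPM in control, 23.2 to 28.3 in Cd, 26.6 to 39.8 in Se and 26.3 to 37.8 in Cd+Se livers. Its Cd change was -0.15 (-0.46 to 0.15) and its change from Cd to Cd+Se was 0.28 (-0.02 to 0.59), with limma adjusted p values of 0.436 and 0.177. The sign of the first became 0.067 after centring. Map1lc3b ranged from 44.3 to 58.8 TPM in control, 36.9 to 54.3 in Cd, 37.5 to 64.9 in Se and 44.6 to 70.7 in Cd+Se livers. Its Cd change was -0.061 (-0.44 to 0.31), or 0.060 after quantile normalization and 0.16 after centring.

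Becn1 and Atg5 lay below control in mean in the Cd livers. Becn1 (ENSMUSG00000035086), the scaffold of the lipid kinase complex that nucleates the membrane, was at 31.5, 36.3, 35.2 and 39.9 TPM in control and at 35.1, 30.8, 19.6 and 26.8 TPM in Cd livers. Only Cd mouse 1 lay inside the control range. The log2 change was -0.36 ± 0.17 (SE), with a limma p of 0.0495 and an adjusted p of 0.117. With 1 mouse left out at a time it ran from -0.48 (without Cd mouse 1) to -0.21 (without Cd mouse 5), with limma adjusted p values from 0.0477 to 0.352. The change was -0.22 after quantile normalization and -0.14 after centring. In Cd+Se livers Becn1 was at 27.1, 32.1, 45.8 and 31.0 TPM, a log2 change from Cd of 0.27 (-0.09 to 0.63, limma adjusted p 0.283).

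Atg5 (ENSMUSG00000038160), part of the conjugate that hands the Atg8 proteins to the membrane, was at 22.1, 21.3, 20.9 and 22.8 TPM in control and at 22.2, 19.3, 14.3 and 17.3 TPM in Cd livers. As with Becn1, mouse 1 was the only Cd liver inside the control range and mouse 5 was the lowest. The log2 change was -0.26 ± 0.12 (SE, 95% interval -0.50 to -0.01), with a limma p of 0.0422 and an adjusted p of 0.104. With 1 mouse left out at a time it ran from -0.35 (without Cd mouse 1) to -0.15 (without Cd mouse 5), with limma adjusted p values from 0.0262 to 0.285. The change was -0.11 after quantile normalization and -0.037 after centring. In Cd+Se livers Atg5 was at 20.6, 19.4, 20.6 and 19.4 TPM, all 4 below the lowest control, a log2 change from control of -0.12 (-0.36 to 0.13, limma adjusted p 0.782). Across the 16 livers Atg5 and Becn1 were the pair of members with the highest Pearson correlation, 0.720, and 39 of the 45 pairs were positive with a median of 0.301. These points share library and scaling.

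Atg7 (ENSMUSG00000030314), the enzyme that activates the Atg8 proteins, was at 11.8, 6.73, 11.02 and 7.38 TPM in Cd livers, a pair above the controls and a pair near or below them. The controls ran from 7.19 to 9.36 TPM, and the log2 change was 0.12 (-0.25 to 0.48, limma adjusted p 0.636). Ulk1 (ENSMUSG00000029512), the kinase that starts autophagosome formation, had a mean of 31.4 ± 4.72 TPM in control, 30.02 ± 7.24 in Cd, 26.3 ± 11.7 in Se and 30.4 ± 4.42 in Cd+Se livers. Its widest group was Se, at 30.8, 40.8, 17.1 and 16.5 TPM. Its Cd change was -0.078 (-0.59 to 0.44, limma adjusted p 0.833), or 0.14 after centring.

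Tfeb (ENSMUSG00000023990) encodes a transcription factor that drives lysosomal and autophagy genes, and its own transcript was scarce. It was at 3.78, 5.35, 4.27 and 4.39 TPM in control and 3.45, 3.0, 3.88 and 3.23 TPM in Cd livers. Only Cd mouse 5 lay inside the control range. The log2 change was -0.31 ± 0.14 (SE, 95% interval -0.60 to -0.01), with a limma p of 0.0406 and an adjusted p of 0.101, while quantile normalization gave -0.092 and centring gave -0.088. Cd+Se livers were at 3.40, 4.60, 4.13 and 3.49 TPM, a log2 change from Cd of 0.16 (-0.14 to 0.45) that became -0.055 and -0.037 under the same scalings.

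Of 21 lysosomal genes known as TFEB targets, 2 had lower levels in Cd than in control livers by limma adjusted p and none had higher ones (24.9% and 5.82% of all genes), with a median log2 change of -0.15 beside -0.17 over all genes. The 2 were Ctsf, a lysosomal protease, at -0.59 (limma adjusted p 0.0117), and Psap, the precursor of the saposins that help degrade sphingolipids, at -0.44 (limma adjusted p 0.0263, but -0.22 and 0.0938 after centring). From Cd to Cd+Se 3 were higher, Psap at 0.67, Ctsf at 0.58 and the protease Ctsb at 0.47, with limma adjusted p values of 0.00984, 0.0245 and 0.0496. That is 3 of 21 beside 13.6% of all genes, and it became 2 after centring, where Ctsb had a limma adjusted p of 0.0969, 6 after quantile normalization, and 0 in the fit on those groups alone, with 7 at an unadjusted p under 0.05. All 21 had a positive change in that comparison, against 69.8% of all genes, but only 14 of 21 after centring.

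Promoter windows from RefSeq (GRCm38.p6, from 250 bases before to 50 after the start site) were found for 8 of the 10 genes, and were searched on both strands for 3 motifs. CACGTG, the core of the site that TFEB binds, was in 7.15% of all 32851 windows and in those of Atg5 and Atg7. The longer palindrome around this core, the CLEAR element, was in 0.326% of all windows and in none of the members' windows. TGACNNNGC, the antioxidant response element bound by Nrf2, was in 12.4% of all windows and in that of Map1lc3b, where it began 4 bases past the start site. The window of Sqstm1 held none of the 3 motifs, and sequence outside the windows was not searched. The matched stretches are shown with the motif in capitals, because they are the members whose windows hold the letters of these elements. Atg7 is at chr6:114670954-114670979, Atg5 at chr10:44268315-44268340 and Map1lc3b at chr8:121590432-121590460, all on the plus strand.
Atg7: tattggtggtCACGTGtgcagtaagt
Atg5: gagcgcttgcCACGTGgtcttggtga
Map1lc3b: gcgagtcaccTGACTCGGCtgcggactga
The 3 genes with a match had Cd changes of 0.12, -0.26 and -0.061, none with an adjusted p under 0.05 by limma. A match describes letters in a window and is not a bound site.

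Across all 10 genes the log2 changes from control to Cd ran from -0.36 (Becn1) to 0.46 (Sqstm1) with a median of -0.11, and 2 of 10 were positive against 33.2% of all genes. The signs of Map1lc3a, Map1lc3b, Gabarap and Ulk1 turned positive after both quantile normalization and centring, and that of Gabarapl1 after centring alone. From Cd to Cd+Se they ran from -0.14 (Atg7) to 0.41 (Gabarapl1) with a median of 0.15 beside 0.17 over all genes, and Tfeb, Ulk1 and Atg5 turned negative under both scalings. No member had 4 Cd+Se values clear of the 4 Cd values, which 19.2% of tested genes had (16.1% higher and 3.11% lower).

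Against control, the Cd+Se livers separated in 3 of 10 genes, against a background of 8.86%. Sqstm1 and Gabarapl1 were higher in all 4 livers, as were 3.88% of tested genes, and Atg5 was lower in all 4, as were 4.98%. By limma adjusted p none of the 10 passed in Cd+Se against control (background 0.484%), and 1 had an unadjusted p under 0.05, which was Sqstm1 (10.9% of all genes did). In Cd+Se against Se (background 0.714%) and for the interaction (background 1.04%) none passed by limma adjusted p and none had an unadjusted p under 0.05, against 10.9% and 21.3% of all genes. In Se against control none of the 10 passed with limma, adjusted or unadjusted, and neither did any other gene by adjusted p (background 0.0%), while 3.86% of all genes had an unadjusted p under 0.05. No member had groups clear of each other in Cd+Se against Se (background 5.64%) or in Se against control (background 3.09%). Positive changes numbered 4 of 10 in Cd+Se against control (46.1% of all genes), 6 in Cd+Se against Se (43.1%), 5 in Se against control (52.2%) and 7 for the interaction (65.9%).

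**Figure D4:**
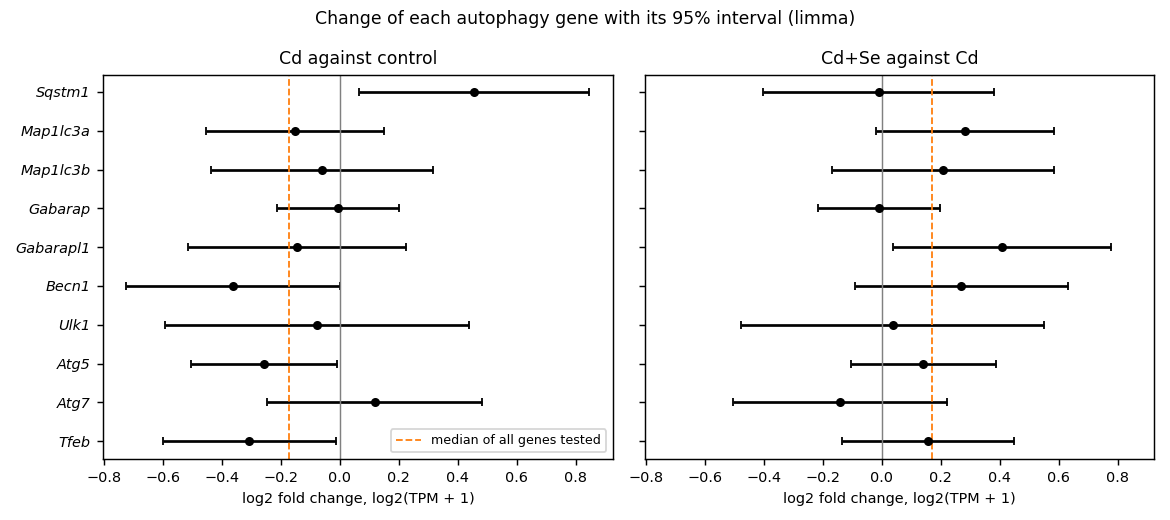
Log2 fold change with 95% interval (x axis) of each of the 10 genes (y axis) in Cd against control on the left and Cd+Se against Cd on the right, from limma on log2(TPM + 1) with 4 mice a group. The dashed line is the median of all genes tested. None has an adjusted p under 0.05. The Cd against control values run from -0.36 to 0.46, and those of Map1lc3a, Map1lc3b, Gabarap, Gabarapl1 and Ulk1 change sign after centring of the libraries.

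Which mouse was highest or lowest in its group was often the same for several members. Cd mouse 5, the library with the lowest median, was the lowest Cd value in 7 of the 10 genes, and Cd mouse 1 was the highest in 7. Se mouse 39 was the lowest Se value in 7 and Se mouse 40, with the highest library median, was the highest in 6. Cd+Se mouse 15 was the highest of its group in 7. The part of RNA quality or depth in this order was not tested.

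The rest of the pathway was described with a list of 61 other autophagy genes, of which 60 were tested (Mitf averaged 0.804 TPM and was not). From control to Cd 2 were higher and 17 lower by limma adjusted p, where the background over all genes was 5.82% higher and 24.9% lower, with a median log2 change of -0.22 beside -0.17 over all genes. With quantile normalization 8 were higher and 15 lower, and with centring 10 were higher and 9 lower, so the balance of directions in this list depends on the scaling. Without control mouse 27 the total passing was 12, without control mouse 28 it was 12, and without control mouse 29 or Cd mouse 5 it was 10. Over all fits with 1 mouse left out the total ran from 10 to 24. From Cd to Cd+Se 11 were higher and 1 lower (background 13.6% and 2.35%), with a median of 0.24 beside 0.17, or 4 higher and 5 lower after centring. That total of 12 became 2 without Cd mouse 5, 7 without Cd mouse 6, 3 without Cd+Se mouse 14 and 5 without Cd+Se mouse 15. With 1 mouse left out at a time it ran from 2 to 16. The fit on the 8 livers of those groups alone gave 0. In the other 4 comparisons none passed by limma adjusted p, with 8, 5, 0 and 13 at an unadjusted p under 0.05 in Cd+Se against control, Cd+Se against Se, Se against control and the interaction.

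In Cd against control 24.9% of all tested genes passed as lower by limma adjusted p. By role, 1 of 4 genes of the initiation complex passed as lower in Cd, Ulk2, which encodes a close relative of Ulk1. Ulk2 was at 13.7 ± 0.877 TPM in control, 8.49 ± 1.08 in Cd and 11.2 ± 0.977 in Cd+Se livers (SD, n = 4). It fell by 0.64 on the log2 scale in Cd (limma adjusted p 0.000676, and 0.0046 after centring) while Cd+Se livers exceeded Cd livers by 0.37 (limma adjusted p 0.0281), a difference that was 0.18 after either scaling and no longer passed (limma adjusted p 0.229 with quantile normalization and 0.222 with centring). Atg101, a partner of the Ulk kinases, was 0.40 lower on the log2 scale in Cd+Se than in Cd livers (-0.40, limma adjusted p 0.0351), the only gene of the list that passed as lower there. It was -0.55 and -0.59 under the scalings (limma adjusted p 0.0199 and 0.012). Among 7 genes of the lipid kinase complex only Ambra1, which tethers the Becn1 complex, passed in Cd, at -0.54 (limma adjusted p 0.0403, but 0.165 after centring).

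In the conjugation step, where Atg7 and Atg5 act, 3 of 8 other genes passed as lower in Cd. Over all tested genes 24.9% passed as lower and 5.82% as higher. The 3 were Atg16l1, the partner of Atg5, at -0.65, and the Atg8-cleaving proteases Atg4d at -0.56 and Atg4c at -0.52, with limma adjusted p values of 0.00731, 0.00953 and 0.0240. Atg16l1 and Atg4d were higher again in Cd+Se than in Cd livers, by 0.60 and 0.52 with limma adjusted p values of 0.0216 and 0.0266. Atg16l1 passed under both scalings as well, while Atg4d was at 0.32 and 0.33 (limma adjusted p 0.079 with quantile normalization and 0.0762 with centring). Gabarapl2, the remaining Atg8 gene, did not pass in either comparison. Of the 9 genes of membrane supply, Vmp1, a membrane protein that moves lipid to the growing autophagosome, was 98.5 ± 19.7 TPM in control and 149 ± 23.7 TPM in Cd livers, a log2 change of 0.60 (limma adjusted p 0.0457) that was 0.82 after centring. Wdr45b, a lipid-binding protein of the same step, changed by -0.68 (limma adjusted p 0.0131).

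Among 13 other cargo receptor genes 6 passed as lower in Cd and none as higher, against 24.9% and 5.82% of all genes. After quantile normalization 6 were lower and 1 higher, and after centring 1 was lower (Tollip) and 2 were higher, Fundc1, a receptor on mitochondria, at 0.51 and Tex264, a receptor for endoplasmic reticulum, at 0.27 (limma adjusted p 0.00235 and 0.0274). Of the 6, the largest changes were in Tollip, a ubiquitin-binding adaptor, Ncoa4, the receptor that delivers ferritin to the lysosome, and Ccpg1, a receptor for endoplasmic reticulum. Tollip was at 18.4 ± 1.70 TPM in control, 11.4 ± 1.93 in Cd and 16.8 ± 1.16 in Cd+Se livers, with log2 changes of -0.66 (limma adjusted p 0.00157) and 0.54 (limma adjusted p 0.0146). Ncoa4 fell by 0.61 and Ccpg1 by 0.55 on the log2 scale in Cd (limma adjusted p 0.0172 and 0.0366), though after centring the adjusted p values were 0.0556 and 0.0797. Both were higher in Cd+Se than in Cd livers, by 0.63 and 0.74 (limma adjusted p 0.0285 and 0.0190). In that comparison 5 of the 13 cargo receptors passed as higher, against 13.6% of all genes. Of these 5, 5 also passed with quantile normalization and 2 with centring, Ccpg1 and Tollip. The difference between Sqstm1 and the other receptors was not tested.

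Of 7 fusion genes 2 passed as lower in Cd, against 24.9% of all genes. They encode the SNARE proteins Snap29 and Stx17, which join the autophagosome to the lysosome, and changed by -0.59 and -0.40 (limma adjusted p 0.0174 and 0.0339). Snap29 also passed under both scalings, while Stx17 was at -0.19 and -0.18 (limma adjusted p 0.0554 with quantile normalization and 0.0687 with centring). Of 11 tested signalling and transcription genes 3 passed as lower and 1 as higher in Cd, against 24.9% and 5.82% of all genes, but 2 as lower (Prkaa2 and Rptor) and 4 as higher (Tfe3, Zkscan3, Sesn2 and Foxo3) after either scaling. Prkaa2 encodes a catalytic subunit of the energy sensor AMPK that activates Ulk1. It was at 18.4 ± 2.13 TPM in control, 9.79 ± 3.24 in Cd and 16.7 ± 5.50 in Cd+Se livers, a log2 change in Cd of -0.89 (limma adjusted p 0.0107). Prkaa1, which encodes the other form of that subunit, changed by -0.25 and did not pass (limma adjusted p 0.238). Rptor, the scaffold of the mTORC1 complex that restrains Ulk1, changed by -0.57 (limma adjusted p 0.00465), and Foxo1, a fasting-activated transcription factor, by -0.43 (limma adjusted p 0.0449, but 0.239 after centring). The gene that passed as higher was Zkscan3, which encodes a repressor of autophagy genes, at 0.43 (limma adjusted p 0.0362). From Cd to Cd+Se, Rptor and Foxo1 changed by 0.41 and 0.49 (limma adjusted p 0.0432 and 0.0423), but neither passed after scaling, at 0.22 and 0.29 with quantile normalization and 0.21 and 0.29 with centring (limma adjusted p from 0.127 to 0.152).

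**Figure D5:**
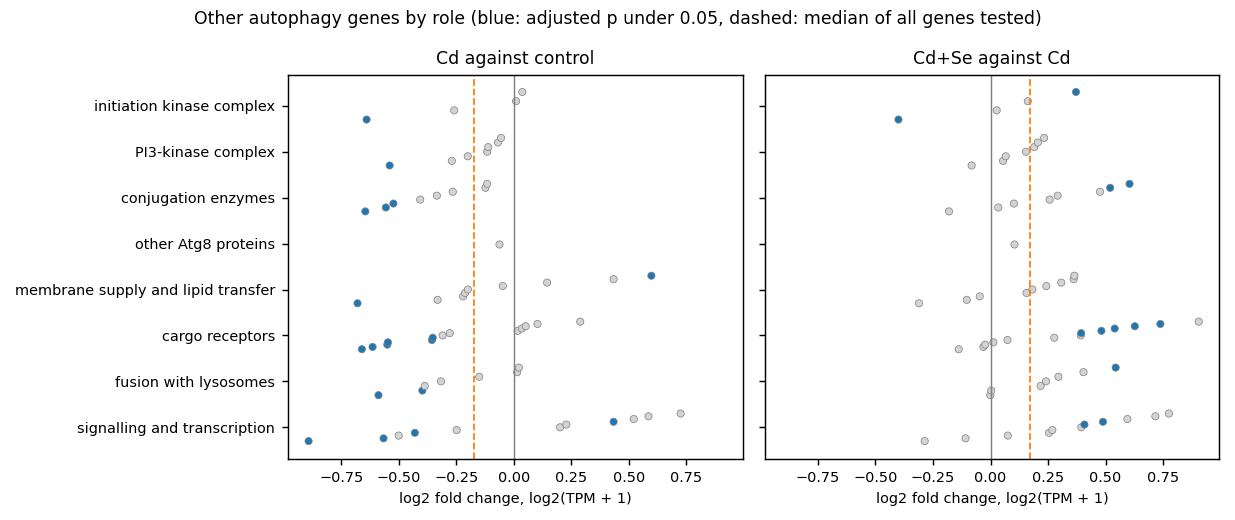
Log2 fold change (limma, log2(TPM + 1)) of the other autophagy genes tested, grouped by role, in Cd against control and Cd+Se against Cd. Each point is 1 gene, blue points have an adjusted p under 0.05, and the dashed line is the median of all genes tested. Of 60 genes 2 are higher and 17 lower in Cd, a split that becomes 10 and 9 after centring of the libraries, and 11 are higher and 1 lower in Cd+Se against Cd, which becomes 4 and 5.

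A wider list, 111 tested genes of the KEGG autophagy pathway other than the 10, was added after the data were seen. In Cd against control 3 were higher and 31 lower by limma adjusted p, with a median log2 change of -0.27, beside 5.82%, 24.9% and -0.17 over all genes. After centring 14 were higher and 22 lower. In Cd+Se against Cd 23 were higher and 2 lower with a median of 0.26, beside 13.6%, 2.35% and 0.17 over all genes, and the counts were 15 and 7 after centring and 2 and 0 in the fit on those groups alone. Many genes are in both lists.

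The genes whose levels tracked Sqstm1 most closely over the 16 livers were an unnamed long non-coding RNA (ENSMUSG00000121141, Pearson r 0.920), Snx16 (0.916), which encodes an endosomal sorting protein, and the ribosomal protein gene Rpl22 (0.910). Rpl22 was at 357 ± 16.5 TPM in control, 453 ± 77.8 in Cd, 382 ± 71.9 in Se and 440.0 ± 45.1 in Cd+Se livers, the same order of means as Sqstm1. Gabarapl1 was tracked by the non-coding Gm12319 (0.886) and by Zfp275 (0.870) and Vezf1 (0.869), which encode zinc finger proteins and were at 2.62 to 3.82 TPM and 3.57 to 4.38 TPM in group mean. These are descriptions over 16 points that share library and scaling.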

How the data were processed

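The authors deposited 1 table of TPM values for 16 mouse livers, made from poly(A) libraries sequenced on the Illumina NovaSeq platform. The submitters' processing notes name fastp, HISAT2 and StringTie, with no versions, and GRCh38, which is a human build, while the gene IDs are mouse Ensembl IDs. Library construction and sequencing were done by a company. TPM keeps no depth, so the depth and counting error are unknown. Values were analysed as log2(TPM + 1) for the 11766 genes that averaged 1 TPM or more, in limma 3.58.1 under R 4.3.3, with 4 group means, a trended prior and Benjamini-Hochberg adjustment over all genes at 0.05. The 6 comparisons were fitted with all 16 libraries. Alternatives were pseudocounts of 0.1, no filter or a minimum of 5 TPM, quantile normalization, centring of libraries on their median, only the groups compared, no trend, each mouse left out, and, chosen after seeing the data, protein-coding genes only. Labels do not say whether mice shared cages or litters. The p-values weigh differences of group means against the spread between these mice, estimated jointly over the groups in the fit.

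The 10 genes, the other gene lists and the markers were chosen with earlier results of these data known. Other genes were named as up to 3 called genes of each role, the called TFEB targets, and the 3 genes most correlated with Sqstm1 and Gabarapl1. Those of each role had the largest called change in Cd against control or in Cd+Se against Cd. Zkscan3, Fundc1, Tex264, Tfe3, Sesn2, Foxo3, Prkaa1 and the ratios to Gabarap were chosen after their values were seen. Promoter sequences came from RefSeq (GRCm38.p6). No entry was matched for Map1lc3a and Becn1.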

Additional observations from a re-analysis of the deposited data

How the results depend on the processing

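Over the alternatives run, none of the 10 genes passed in the reported fit, and the number passing in Cd against control was 1 with quantile normalization (Sqstm1), 2 with centring (Sqstm1 and Gabarap) and 1 with only the groups compared (Sqstm1). Leaving out 1 mouse at a time gave 0 to 2 in Cd against control and 0 to 1 in Cd+Se against Cd. Signs turned with the scaling. With quantile normalization the Cd against control changes were 0.022 for Gabarap, 0.0027 for Map1lc3a, 0.062 for Ulk1 and 0.060 for Map1lc3b, and the Cd+Se against Cd changes were -0.055 for Tfeb, -0.083 for Ulk1 and -0.0072 for Atg5. With centring they were 0.21 for Gabarap, 0.067 for Map1lc3a, 0.14 for Ulk1, 0.076 for Gabarapl1 and 0.16 for Map1lc3b, and -0.037 for Tfeb, -0.16 for Ulk1 and -0.053 for Atg5. Leaving out 1 mouse, the Cd against control change ran from -0.037 to 0.049 for Gabarap, -0.22 to 0.017 for Ulk1, -0.27 to 0.011 for Gabarapl1, -0.0021 to 0.24 for Atg7 and -0.13 to 0.049 for Map1lc3b, and the Cd+Se against Cd change from -0.10 to 0.089 for Sqstm1, -0.064 to 0.046 for Gabarap and -0.058 to 0.18 for Ulk1. Over all genes, 685 were higher and 2934 lower in Cd against control, 1710 and 2276 after quantile normalization, and 2260 and 1804 after centring. In Cd+Se against Cd the split was 1600 and 276, then 1170 and 908, then 937 and 1272, and with only the groups compared 47 and 19. The cause was not tested. Quantile normalization and centring moved the median change of all genes in Cd against control from -0.17 to -0.01 and 0.05. No paired analysis was possible because no mouse number occurs in more than 1 group. With 4 mice a group and unknown depth, a p that misses the threshold does not show that levels were equal.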
